A study of Mus musculus with 2 samples.

Results

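The T-box genes encode transcription factors that share a DNA-binding domain, and the 10 members described here are the ones used from the primitive streak to the heart: T, Eomes, Tbx1, Tbx2, Tbx3, Tbx4, Tbx5, Tbx6, Tbx18 and Tbx20. They were taken by gene symbol from the deposited FPKM table, whose unit counts fragments relative to transcript length and library size, and all 10 were found once among 24354 genes. Mouse embryonic stem cells (ESCs) were differentiated toward mesoderm as embryoid bodies (EBs), and poly(A) RNA of 1 control culture (Diff–CONT) and 1 inducible Ino80 knockout culture (Diff–iKO) was sequenced. Ino80 is the ATPase of a chromatin remodelling complex, and the comparison asks how the loss of Ino80 alters the genes of mesodermal differentiation.

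Both ESC lines carried floxed Ino80 (Ino80 2f/2f) by the account of the study, whereas the labels call the control line WT. The ROSA26-CreER driver, expressed in all cells, was carried by the knockout line alone, and the lines came from different blastocysts. EBs of both lines were attached on day 4 and received differentiation medium with BMP4 and 0.5 µM 4-OHTM, the tamoxifen metabolite that activates CreER, from day 5 for 7 days until collection on day 12. Each condition was 1 line and 1 library, so line, culture and genotype cannot be told apart, no difference has a replicate check, and no p-value is given. In bulk RNA, fewer cells of a type and less RNA per cell also cannot be told apart.

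Ino80 itself did not have a lower level under the knockout label. Its FPKM was 8.90 in Diff–CONT ESCs and 10.3 in the library labelled Diff–iKO. Its log2 ratio was 0.21 with a 95% interval of 0.11 to 0.31. Whether counted fragments lie in the deleted exons cannot be read from a value per gene, so every direction given here is that of a library labelled Diff–iKO without a lower Ino80 level. The depth fitted to the FPKM steps was 29920000 fragments for Diff–CONT and 22380000 for the library labelled Diff–iKO. The fragments recovered per gene at that depth summed to 28145371 and 21931448 over the matched genes. Xist, the RNA of the inactive X chromosome, had an FPKM of 0.0639 and 3.59. The Y-linked genes looked at had 4.14 and 0.664 (Uty), 1.11 and 0.228 (Kdm5d), 4.07 and 1.89 (Ddx3y) and 2.80 and 1.10 (Eif2s3y). The libraries thus also differed in sex-linked transcripts, with Xist and Y-linked RNA both present in the library labelled Diff–iKO. All intervals here are exact 95% intervals on recovered fragments and cover counting error only.

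T-box proteins bind DNA through the T-box and act as activators (T, Eomes, Tbx5) or, for Tbx2 and Tbx3, mainly as repressors. T and Eomes mark the primitive streak, where cells leave the epiblast to form mesoderm. Tbx6 and Tbx18 pattern paraxial mesoderm and somites, Tbx1 the pharynx and second heart field, Tbx4 the hindlimb bud and allantois, Tbx2 and Tbx3 the non-chamber heart, and Tbx5 and Tbx20 the heart chambers.

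The T-box members were lower or close to level in the library labelled Diff–iKO, and none was higher past the cut-off. The cut-off took the FC of at least 2 and the FPKM of at least 2 used in the study, with the FPKM minimum read here as met in at least 1 library. With the minimum required in both libraries, 2 members were lower past it. T, Eomes, Tbx4, Tbx2 and Tbx20 were lower past it, which is 5 of the 10 members. With a pseudocount of 1, Tbx4 (-0.73), Tbx2 (-0.96) and Tbx20 (-0.92) no longer passed, and T and Eomes did. Of all genes that reached the FPKM minimum, 8.39% were lower past the cut-off and 6.73% were higher. T, Eomes and Tbx4 reached that minimum only through Diff–CONT ESCs, and 4 of the 10 members did not reach it at all, so the count of members is not set against these shares. Tbx3, the member with the highest level, kept 88.2% of its FPKM. The summed FPKM of the 10 members was 48.6 in Diff–CONT ESCs and 24.8 in the library labelled Diff–iKO, so 51.0% was kept.

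**Figure D1:**
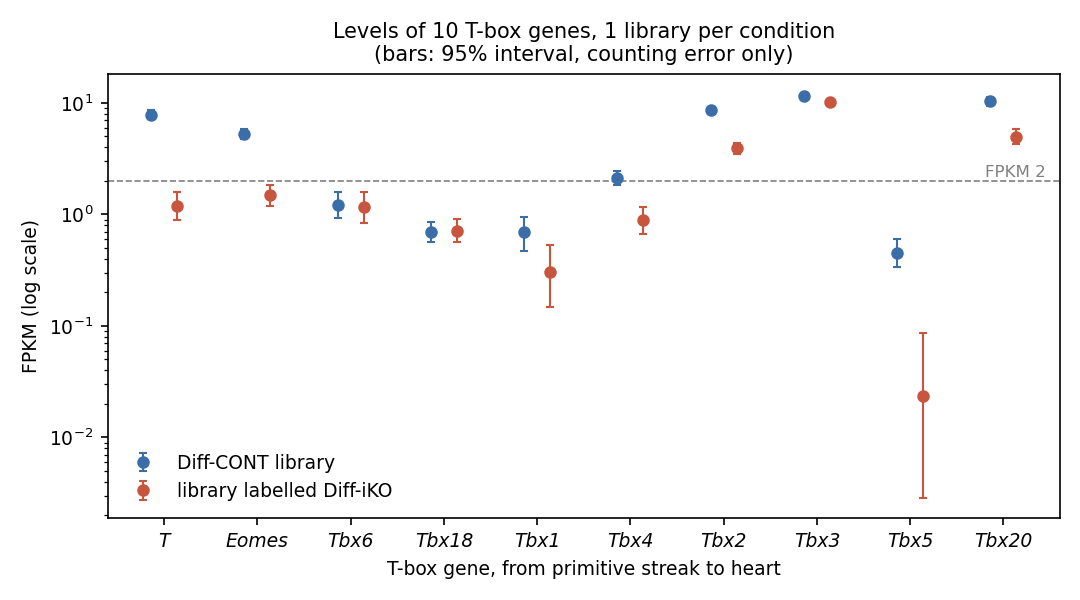
FPKM (log axis) of the 10 T-box genes in Diff–CONT ESCs (blue) and in the library labelled Diff–iKO (red), 1 library each, with 95% intervals for counting error. T, Eomes and Tbx4 lie above the dashed line at FPKM 2 in Diff–CONT ESCs only, Tbx2, Tbx3 and Tbx20 in both libraries, and Tbx6, Tbx18, Tbx1 and Tbx5 in neither.

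T, Eomes, Tbx4 and Tbx20 were the lower members with a promoter sequence at hand, and the 250 bases before their RefSeq start sites (GRCm38.p6) are shown 5′ to 3′ on the strand of the gene. Capitals mark matches to the motifs searched.
T, chr17:8434173-8434422, plus strand: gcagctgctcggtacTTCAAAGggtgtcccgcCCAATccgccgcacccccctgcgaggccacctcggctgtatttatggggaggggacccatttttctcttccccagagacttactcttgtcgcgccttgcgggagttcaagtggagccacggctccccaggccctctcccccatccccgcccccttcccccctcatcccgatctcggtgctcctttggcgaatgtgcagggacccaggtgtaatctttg
Eomes, chr9:118477939-118478188, plus strand: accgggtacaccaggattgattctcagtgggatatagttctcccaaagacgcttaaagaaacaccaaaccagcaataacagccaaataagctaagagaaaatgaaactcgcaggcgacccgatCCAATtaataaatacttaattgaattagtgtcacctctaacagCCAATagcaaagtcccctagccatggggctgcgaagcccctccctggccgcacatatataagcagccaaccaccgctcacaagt
Tbx4, chr11:85896515-85896764, plus strand: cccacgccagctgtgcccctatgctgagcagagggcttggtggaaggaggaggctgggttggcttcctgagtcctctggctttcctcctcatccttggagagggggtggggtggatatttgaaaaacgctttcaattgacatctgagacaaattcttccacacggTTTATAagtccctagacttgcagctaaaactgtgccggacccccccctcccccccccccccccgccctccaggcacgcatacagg
Tbx20, chr9:24774304-24774553, minus strand: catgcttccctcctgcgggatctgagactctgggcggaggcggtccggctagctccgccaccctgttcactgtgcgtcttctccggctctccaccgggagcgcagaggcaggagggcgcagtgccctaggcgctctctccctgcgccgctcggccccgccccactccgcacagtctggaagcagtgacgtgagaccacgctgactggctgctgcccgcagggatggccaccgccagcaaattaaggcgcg

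The motifs were the T-box site AGGTGTGA and its core GGTGTG, the TCF/LEF cores CTTTGAA and CTTTGAT, the TATA box TATAAA, the E-box CACGTG and the CCAAT box CCAAT, each on both strands, with GGTGTG lying inside AGGTGTGA. The T window held CTTTGAA on its reverse strand at -235 and a CCAAT box at -218, counted in bases from the start site. The Eomes window held CCAAT boxes at -127 and -84, and the Tbx4 window held TATAAA on the reverse strand at -85. CCAAT, shared by T and Eomes, was the only motif of the search found in more than 1 of the 4 windows, and the Tbx20 window held none of them. Over all 32817 windows of this length, CTTTGAA was present in 4.46%, CCAAT in 33.8% and TATAAA in 12.4%.

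The T-box letters themselves were not found in any member window. Of the 10 members, 7 had a window, 8 windows in all, and 0 of these 8 held AGGTGTGA or GGTGTG, which 1.12% and 16.3% of all windows held. CTTTGAT and CACGTG, held by 3.21% and 6.02% of all windows, were also in none of the lower members shown. Base composition varied among the lower members, from 46.4% GC in the Eomes window to 68.8% in that of Tbx20, with 62.8% for T and 58.4% for Tbx4, beside a median of 52.4% over all windows. The Eomes window ends just before the annotated gene, and the Tbx4 window lies inside it, at a RefSeq start downstream of the first annotated one.

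T and Eomes, the streak regulators, had the lowest log2 ratios among the members that reached the FPKM minimum. T (also called Brachyury, chr17:8434423-8442496, plus strand, GRCm38) drives mesoderm formation and notochord development, and its FPKM was 7.83 in Diff–CONT ESCs and 1.198 in the library labelled Diff–iKO. Its log2 ratio was -2.71 (95% interval -3.15 to -2.28) on 435 and 50 fragments, a level 6.53-fold lower. Eomes (chr9:118478212-118486132, plus strand) directs nascent mesoderm and definitive endoderm and is also used in trophoblast, and its FPKM was 5.25 and 1.48. Its log2 ratio was -1.83 (-2.17 to -1.49) on 421 and 89 fragments, a level 3.55-fold lower. Both genes reached the FPKM minimum through Diff–CONT ESCs only. Eomes overlaps Gm33460 on the opposite strand, so fragments of the pair cannot be told apart if the counting ignored strand.

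The level of T relative to Eomes also differed. T stood 1.49 times above Eomes in FPKM in Diff–CONT ESCs and at 0.810 of the Eomes level in the library labelled Diff–iKO. The intervals of their levels were apart in Diff–CONT ESCs and overlapped in the other library, so the order of the pair there is within counting error. T and Eomes together made up 26.9% of the summed FPKM of the 10 members in Diff–CONT ESCs and 10.8% in the library labelled Diff–iKO.

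Tbx6 and Tbx18, the paraxial and epicardial members, were low in both libraries. Tbx6 (chr7:126781483-126785560, plus strand), which specifies presomitic mesoderm downstream of T, had an FPKM of 1.22 and 1.17, a log2 ratio of -0.07 with an interval from -0.69 to 0.54. Tbx18 (chr9:87702800-87731260, minus strand), a regulator of epicardium, sinus venosus and somite polarity, had an FPKM of 0.697 and 0.715, a log2 ratio of 0.04 with an interval from -0.43 to 0.49. Both intervals include 0, so at 56 and 40 fragments for Tbx6 and 94 and 72 for Tbx18 no difference was detectable. The sign of Tbx18 turned to -0.06 when both libraries were scaled to the same FPKM sum. Tbx6 kept 95.5% of its level while T kept 15.3%, and since the interval of each ratio lies apart from that of the other, this contrast is larger than counting error.

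Tbx1 (chr16:18580979-18590671, minus strand), the pharyngeal and second heart field member, stayed below the FPKM minimum with 0.688 in Diff–CONT ESCs and 0.306 in the library labelled Diff–iKO. Its log2 ratio of -1.17 had a wide interval, from -2.34 to -0.19, because it rested on 34 and 11 fragments. Tbx1 kept 44.5% of its FPKM, a share near that of Tbx2, Tbx4 and Tbx20 but measured far less precisely.

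Tbx4 (chr11:85886422-85916097, plus strand), used in the hindlimb bud and the allantois, had an FPKM of 2.12 and 0.885. The log2 ratio was -1.26 (-1.72 to -0.81) on 176 and 55 fragments. Tbx4 lies just above the FPKM minimum in Diff–CONT ESCs, with a level interval of 1.82 to 2.46, so counting error alone could place it on either side of that minimum.

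Tbx2 and Tbx3, closely related repressors, did not move alike. Tbx2 (chr11:85832551-85841948, plus strand) keeps chamber genes off in the atrioventricular canal, and its FPKM was 8.55 in Diff–CONT ESCs and 3.91 in the library labelled Diff–iKO. Its log2 ratio was -1.13 (-1.32 to -0.94) on 879 and 301 fragments. Tbx3 (chr5:119670669-119684724, plus strand) acts in the conduction system and is also expressed in pluripotent ESCs, and its FPKM was 11.5 and 10.1. Its log2 ratio was -0.18 (-0.30 to -0.07) on 1578 and 1041 fragments, below 0 but far from the cut-off. The intervals of both ratios do not overlap, and the level of Tbx3 was 1.34 times that of Tbx2 in FPKM in Diff–CONT ESCs and 2.59 times in the library labelled Diff–iKO. Tbx3 overlaps Tbx3os1 on the opposite strand, which has no value of its own here.

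Tbx5 and Tbx20, the chamber members, differed widely in level. Tbx5 (chr5:119832668-119885219, plus strand), required for atrial and left ventricular development, was at an FPKM of 0.452 in Diff–CONT ESCs and 0.0238 in the library labelled Diff–iKO. Only 51 and 2 fragments stand behind these values, so the log2 ratio of -4.25 had an interval from -7.34 to -2.33, and Tbx5 was below the FPKM minimum in both. Tbx20 (chr9:24718138-24774303, minus strand), expressed in heart muscle and endocardium, had an FPKM of 10.3 and 4.98. Its log2 ratio was -1.05 (-1.30 to -0.80) on 498 and 180 fragments, with 48.2% of the level kept. Its FC of 2.08 was the nearest to the cut-off of the members called lower. The level of Tbx20 was 22.9 times that of Tbx5 in FPKM in Diff–CONT ESCs, so the chamber pair was represented almost wholly by Tbx20.

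**Figure D2:**
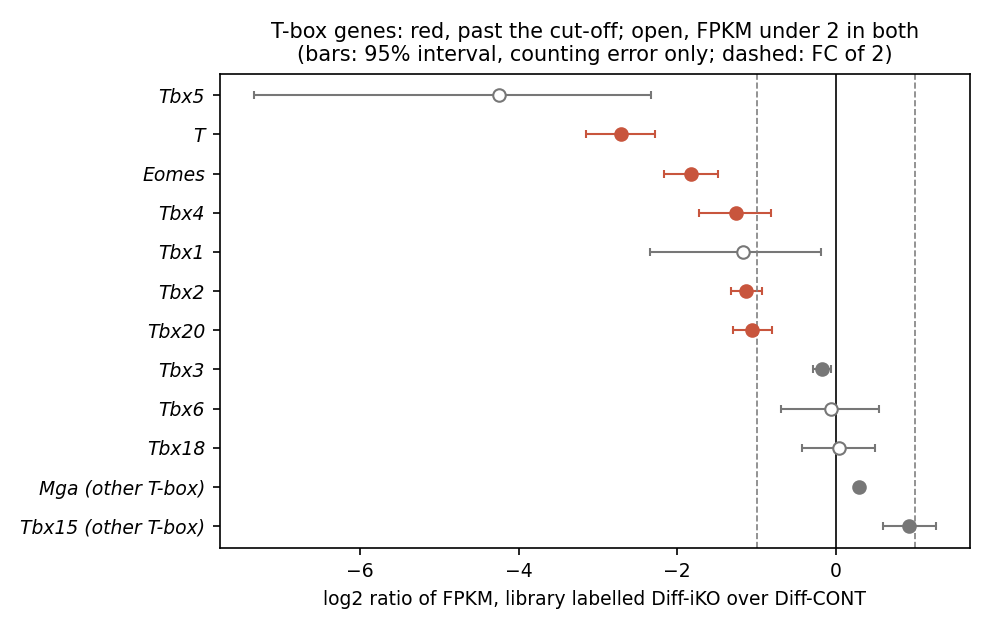
Log2 ratio of FPKM, library labelled Diff–iKO over Diff–CONT, for the 10 members and for Mga and Tbx15, with 95% intervals for counting error. T, Eomes, Tbx4, Tbx2 and Tbx20 (red) are past the dashed line at an FC of 2, Tbx3 lies near 0, and the open points, among them Tbx5 with the widest interval, stay under an FPKM of 2 in both libraries.

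Among the members, 9 had a log2 ratio below 0 and 1 above it. The interval lay wholly below 0 for 8 of the 10 members, which includes Tbx3, whose ratio was small, and Tbx1 and Tbx5, which were under the FPKM minimum. Of all genes that reached the minimum, 39.1% had an interval wholly below 0 and 38.8% wholly above it, and nothing is read from the members' count against these shares. The median log2 ratio of the 6 members that reached the minimum, with a pseudocount of 0.1, was -1.14, against -0.00 over all genes that reached the minimum. T, Eomes and Tbx4 entered that median through Diff–CONT ESCs alone, so it describes the detected members and supports nothing beyond their own values.

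**Figure D3:**
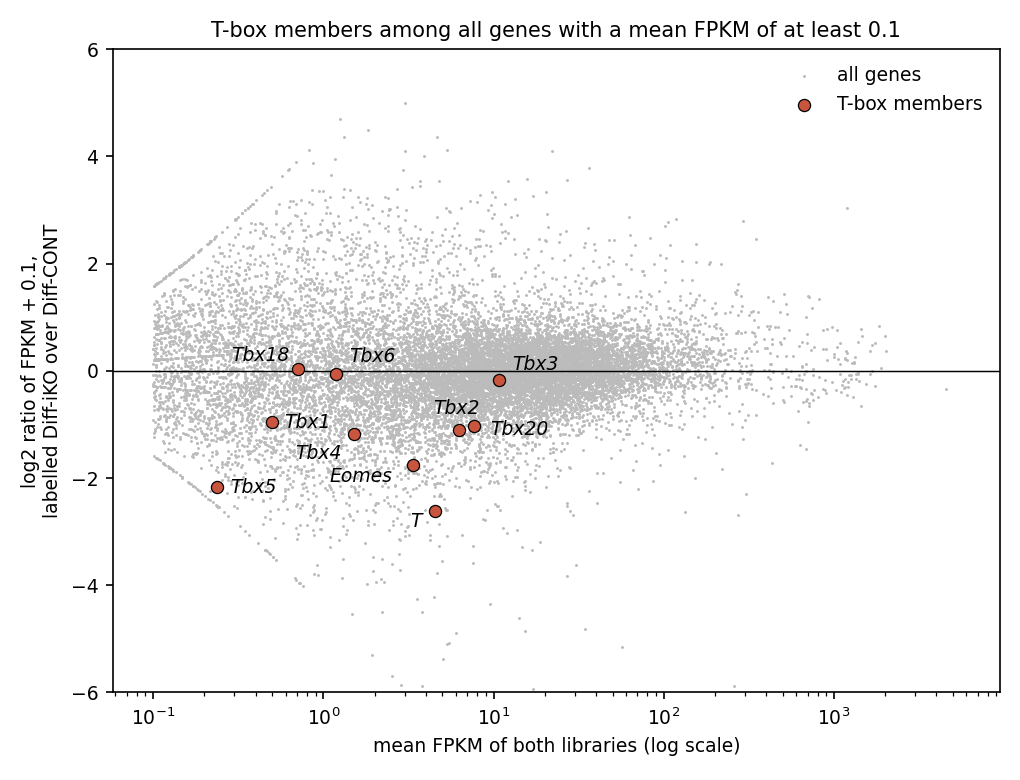
Log2 ratio of FPKM + 0.1 against the mean FPKM of both libraries (log axis) for genes whose mean FPKM was 0.1 or more (grey) and for the 10 members (red). The vertical axis ends at 6 in either direction, which leaves out 25 genes. T and Eomes lie below the bulk of genes of their level, and Tbx3, Tbx6 and Tbx18 lie within it.

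The ranking by FPKM kept its top and its end. In Diff–CONT ESCs the order was Tbx3, Tbx20, Tbx2, T, Eomes, Tbx4, Tbx6, Tbx18, Tbx1 and Tbx5. The neighbours Tbx3 and Tbx20, Tbx2 and T, Tbx18 and Tbx1, and Tbx1 and Tbx5 had overlapping level intervals. The library labelled Diff–iKO gave the order Tbx3, Tbx20, Tbx2, Eomes, T, Tbx6, Tbx4, Tbx18, Tbx1 and Tbx5, with overlap between Tbx20 and Tbx2 and along the run from Eomes to Tbx18. The middle of the order in that library is therefore not resolved at this depth. Among all genes T moved from the percentile 65.9 to 48.0 of FPKM and Eomes from 60.6 to 49.7, while Tbx3 stood at 72.2 and 70.8. Tbx3 made up 23.6% of the members' summed FPKM in Diff–CONT ESCs against 40.9% in the other library.

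The other 7 T-box genes were mostly close to the limit of detection. Mga, a T-box and bHLH protein of a repressive complex, had an FPKM of 17.6 and 21.5, a log2 ratio of 0.29 (0.24 to 0.34). Tbx15, a regulator of skeletal and muscle mesenchyme, had an FPKM of 1.29 and 2.44, a log2 ratio of 0.92 (0.59 to 1.26) and an FC of 1.89. These 2 were the only ones of the 7 to reach the FPKM minimum, Tbx15 through the library labelled Diff–iKO alone, and 0 passed the cut-off in either direction. Tbx21, the T helper cell regulator, was at 0.0282 and 0.188 on 2 and 10 fragments. Tbr1, a cortical neuron regulator, was at 0.0791 and 0.177 on 9 and 15 fragments. Tbx10 and Tbx22 had 1 and 2 fragments in Diff–CONT ESCs and 0 in the library labelled Diff–iKO, and Tbx19, the pituitary T-box gene, was listed at 0 in both. Lymphocyte genes were sparse as well, since of 7 NK and T lymphocyte markers 0 reached the FPKM minimum, and their sum was 0.458 and 1.502.

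Neighbouring genes allow the members to be read beside their genomic surroundings. Genes whose body lies within 200 kb of a member numbered 53 with the members left out, of which 31 reached the FPKM minimum, with a median log2 ratio of -0.01. Of these, 2 were lower and 2 higher past the cut-off, beside 8.39% and 6.73% of all genes. All 4 lie beside Tbx6, which has 17 of the 31 and whose own level hardly differed. They were Mapk3, the kinase ERK1 (82.7 and 39.1, log2 ratio -1.08), Fam57b (4.82 and 2.00, -1.27), Apobr (3.23 and 12.9, 2.00) and Bola2 (80.7 and 170, 1.07). None of the neighbours that reached the minimum beside T (3 genes), Eomes (2), Tbx1 (7), Tbx2 (1) or Tbx4 (2) was past the cut-off.

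The members form 2 neighbouring pairs. Tbx2 and Tbx4 start 53.9 kb apart on chromosome 11, and both were lower, by -1.13 and -1.26 on the log2 scale. Tbx3 and Tbx5 start 162 kb apart on chromosome 5, and their log2 ratios were -0.18 and -4.25. The intervals overlapped within the first pair and not within the second.

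**Figure D4:**
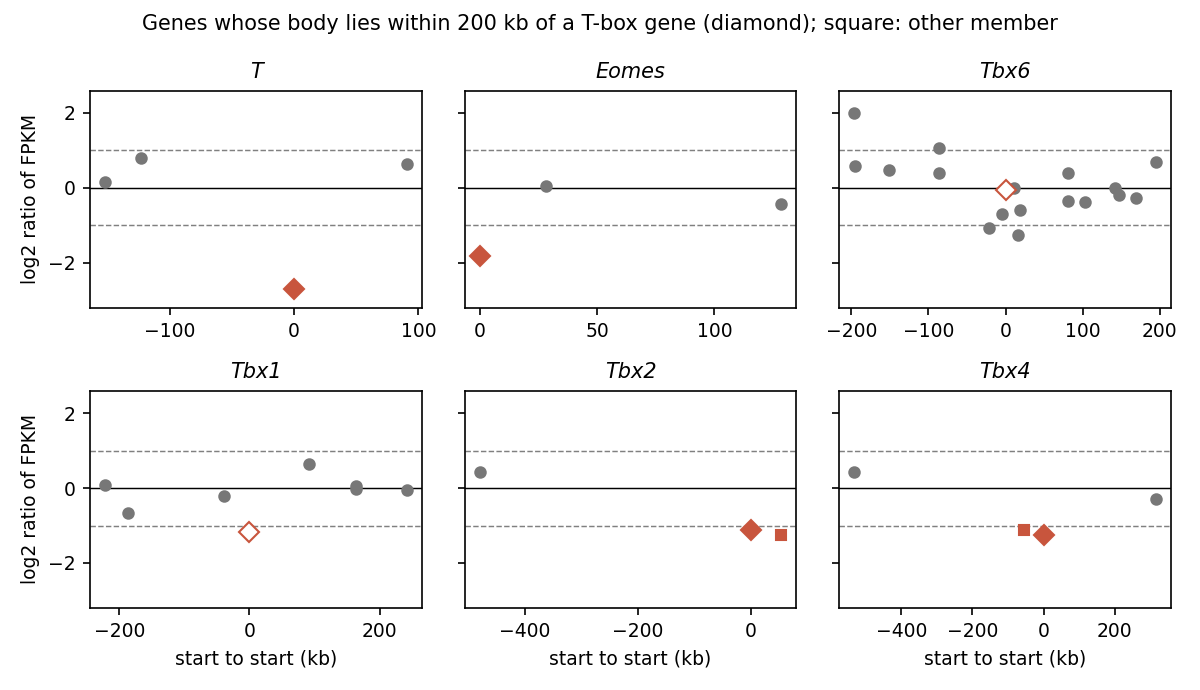
Log2 ratio of FPKM, library labelled Diff–iKO over Diff–CONT, of neighbouring genes that reached the FPKM minimum (grey circles), for the 6 members that had any, against the distance between start sites in kb. Diamonds are the members, open where below the minimum, squares are the paired member, and dashed lines mark an FC of 2. Only the Tbx6 panel has grey circles beyond the dashed lines.

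Signals that switch T-box genes on differed in both directions. Wnt, Nodal, FGF and BMP ligands induce T and Eomes in the streak, and FGF and BMP ligands act on limb and heart members. Of 11 signal genes, 9 reached the FPKM minimum, 5 were lower and 3 higher past the cut-off, and the median log2 ratio over those whose mean FPKM was 1 or more was -1.68, beside -0.01 over all such genes. With a mean FPKM of 5 or more required, the median of the signal genes was -0.33. Bmp4, the inducer that was also supplied in the medium, had an FPKM of 43.7 and 12.4, a log2 ratio of -1.82. Fgf8, a streak and pharyngeal ligand, was at 18.3 and 0.807 (-4.50, on 358 and 12 fragments). The 3 higher genes all belong to the Nodal branch: Nodal itself (22.9 and 78.2, 1.77), its coreceptor Tdgf1 (49.8 and 259, 2.38) and the related ligand Gdf3 (4.12 and 49.7, 3.59). Nodal and Tdgf1 are also expressed in pluripotent cells.

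Genes expressed with T and Eomes in the primitive streak and nascent mesoderm were mostly lower. Of 20 listed, 13 reached the minimum, 10 were lower and 2 higher past the cut-off, and the median log2 ratio was -1.69. The summed FPKM of the list was 133 in Diff–CONT ESCs and 154 in the library labelled Diff–iKO. Beside the counts of every list here, 8.39% of all genes reaching the minimum were lower and 6.73% higher past the cut-off. Some list genes reached the minimum through Diff–CONT ESCs only, so list counts are not read against these shares. Lhx1, an Eomes target of the anterior streak, was at 4.74 and 0.296 (-4.003), and Pdgfra, a receptor of nascent mesoderm, at 19.1 and 4.65 (-2.04). The 2 higher genes were Nodal and Fgf4, the latter at 7.46 and 46.0 (2.62). Fgf4 is also a gene of pluripotent cells. Foxa2 of this list is also among the visceral endoderm markers given below, and the part of that tissue in the list was not tested.

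The presomitic and somite genes of the Tbx6 and Tbx18 programmes had a median of -0.40, which was -0.57 with a mean FPKM of 5 or more and -0.97 with no minimum. Of 16 listed, 8 reached the minimum, with 2 lower and 1 higher. Rspo3, a Wnt enhancer, was at 8.68 and 1.57 (-2.46), and the protocadherin Pcdh8 at 3.45 and 0.919 (-1.91). Lfng, a Notch modifier of the segmentation clock, was at 9.45 and 6.33 (-0.58). Tcf15, a somite factor that is also expressed in ESCs, was at 1.39 and 13.2 (3.26).

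Of the heart gene groups, those of the second heart field, the chamber and the atrioventricular canal had medians near -1 or below, and the epicardial group did not. The lists share genes, so they are not separate groups. Among others, Fgf8 is in the streak, second heart field and signal lists, and Nodal in the streak and signal lists. Bmp4 and Fgf10 are in the second heart field, limb and signal lists, and Msx1 in the canal and limb lists. For the second heart field and pharynx, the domain of Tbx1, 11 of the 15 genes reaching the minimum were lower and 1 was higher, with a median of -1.36. The ligand gene Wnt5a was at 18.4 and 8.67 (-1.09), and the ligand Fgf10, described as a Tbx1 target, at 5.73 and 0.600 (-3.26). The exception was Gbx2, a factor shared with neural tissue, at 0.996 and 4.14 (2.05).

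For cardiac muscle and chamber genes, the domain of Tbx5 and Tbx20, 11 of the 16 reaching the minimum were lower and 1 higher, and the median was -1.86. Gata4, a partner of Tbx5, was at 20.1 and 2.56 (-2.97), cardiac actin Actc1 at 11.8 and 1.33 (-3.15), and the myosin light chain Myl3 at 5.48 and 0.562 (-3.28). The median of this list was -1.24 with a pseudocount of 1. Hand1 was at 70.8 and 31.3 (-1.18), and the gap junction gene Gja1 at 136 and 68.8 (-0.98), just short of the cut-off. Nppb, a natriuretic peptide gene of chamber muscle, was at 1.85 and 8.88 (2.26). The ventricular genes Myl2 and Bmp10 were below 0.1 in both libraries.

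All 14 genes of the atrioventricular canal and cushions, the domain of Tbx2, Tbx3 and Tbx20, reached the minimum, with 7 lower and 0 higher and a median of -0.97. Msx1 was at 17.3 and 3.01 (-2.52) and Has2, the hyaluronan synthase of cushion matrix, at 24.4 and 5.72 (-2.09). The matrix gene Postn was at 174 and 81.8 (-1.09), while Cdh11 (62.1 and 36.6, -0.76) and Vcan (51.4 and 37.9, -0.44) did not pass.

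The epicardial and sinus venosus genes of the Tbx18 domain were divided. Of 9 genes reaching the minimum 3 were lower and 1 higher, with a median of -0.41 that turned to 0.019 when the mean FPKM had to be 5 or more. Tcf21 (3.49 and 0.128, -4.77, on 112 and 3 fragments), Upk3b (2.30 and 0.169, -3.77) and Sema3d (5.76 and 1.78, -1.70) were lower, and Msln, the mesothelial gene, was at 2.75 and 5.52 (1.01). Krt19, an epithelial keratin, was at 119 and 120.

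In the limb bud and allantois list of the Tbx4 domain, 9 of the 14 reaching the minimum were lower and 0 higher, with a median of -1.003. Pitx1, which acts upstream of Tbx4 in the hindlimb, was at 7.66 and 0.769 (-3.32), and Meis2 at 27.7 and 8.90 (-1.64). Sall4, also a gene of pluripotent cells, was at 27.5 and 28.6.

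**Figure D5:**
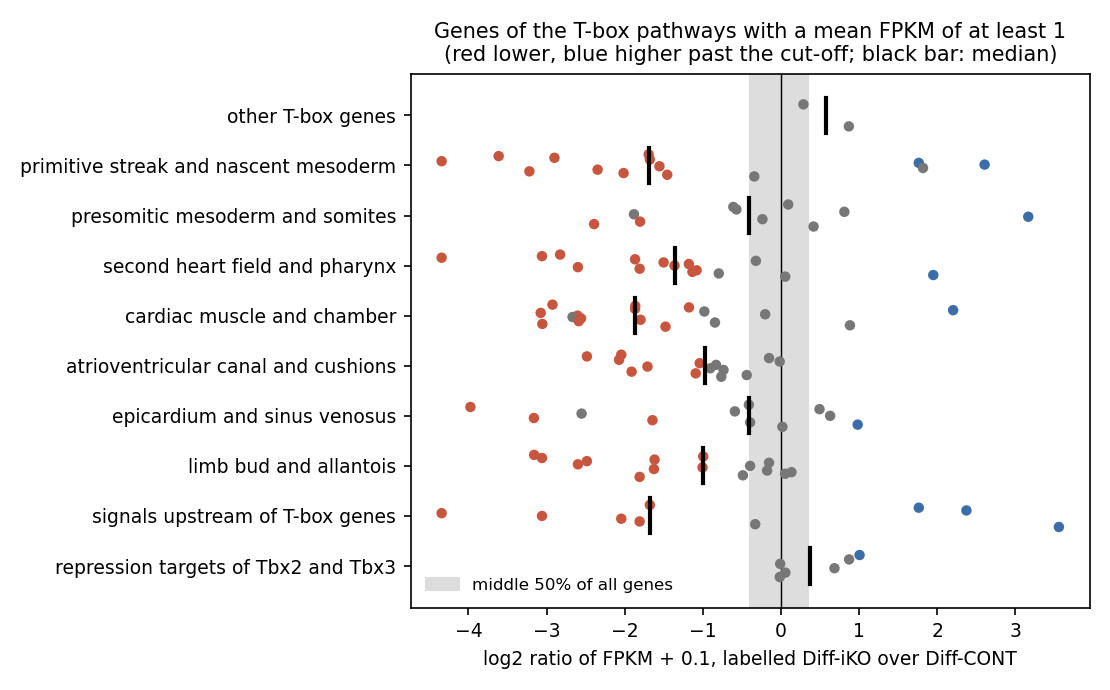
Log2 ratio of FPKM + 0.1 for list genes whose mean FPKM was 1 or more, 1 point per gene (red lower, blue higher past the cut-off, grey not past it), with the list median as a black bar and the middle 50% of single genes shaded, which is not the spread of list medians. The medians of the streak, cardiac and upstream signal lists lie near -1.7 to -1.9 (the signal median is -0.33 when the mean FPKM has to be 5 or more), and that of the repression targets lies above 0.

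Among growth control genes described as repressed by Tbx2 or Tbx3, 1 passed the cut-off. All 6 reached the minimum, 0 were lower and 1 was higher past the cut-off, and the median log2 ratio was 0.37. Cdkn1a, which encodes the cell cycle inhibitor p21, was at 78.1 and 157, a log2 ratio of 1.01 (0.92 to 1.10) that lies at the cut-off itself. Cdkn2a was at 19.4 and 35.7 (0.88) and Cdh1, encoding E-cadherin, at 166 and 268 (0.69). The other 3 genes had log2 ratios from -0.01 to 0.06, 2 of them below 0.

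Markers of other cell types moved between the libraries beside the T-box members. Of 10 pluripotent cell markers, 9 were higher and 0 lower, their summed FPKM was 232 and 927, and Pou5f1 was at 60.8 and 247. Tbx3, Nodal, Tdgf1 and Fgf4 are expressed in such cells, and the part of these cells in their values was not tested. Of 13 visceral endoderm markers, 11 were lower and 0 higher, their sum was 353 and 22.5, and Rbp4 and Ttr were at 111 and 3.05 and at 66.7 and 2.28, with Alb below 0.1 in both. Eomes is used in visceral endoderm as well, and the part of that tissue in its value was not tested.

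Trophoblast markers, relevant to Eomes, summed to 52.2 and 100.1, with 1 lower and 3 higher of the 8 reaching the minimum, among them Esrrb at 7.10 and 42.0 and Tfap2c at 6.68 and 24.1. Both are shared with pluripotent cells. The lower one was Cdx2 at 3.996 and 0.705, and the list was split into 4 below and 4 above 0 with a median log2 ratio of -0.02. Endothelial markers, relevant to Tbx20 in endocardium, summed to 89.1 and 114, with 5 lower and 2 higher of 10, the higher being Pecam1 (16.2 and 53.9) and Eng (7.31 and 28.9). The rising sum comes from this pair, as the other 8 had log2 ratios below 0 and the median of the list was -1.03. Fibroblast and mesenchyme markers, relevant to Tbx2, Tbx4 and Tbx15, summed to 1820 and 1649, with 5 lower and 0 higher of 10. Of these 10, 9 had log2 ratios below 0 and the median was -0.996. Col3a1 was at 386 and 187, and Col1a1, the most abundant and the only one above 0, at 880 and 1199. Of 6 markers of cortical neurons and their progenitors, relevant to Tbr1 and Eomes, 3 reached the minimum. Of these 1, the neuron gene Dcx, was lower at 5.66 and 2.69. The list sum was 70.0 and 52.0, and most of it was the neuron gene Tubb3 at 60.1 and 45.0. The part of these cell types in the T-box values was not tested.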

How the data were processed

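RNA-seq of 2 libraries, 1 per condition, was analysed. The authors deposited FPKM values per gene. By the study's methods and the submitters' processing notes, reads from a stranded mRNA kit were aligned to mm10 with STAR 2.7.9a, and FPKM came from Cuffquant and Cuffnorm of Cufflinks 2.2.1. The annotation and the strand setting are not given in the sources used here.

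From the deposited FPKM, a log2 ratio (library labelled Diff–iKO over Diff–CONT) was taken per gene without a pseudocount. Medians used a pseudocount of 0.1. The cut-off was FC of at least 2 and FPKM of at least 2. The study does not say in how many libraries, and at least 1 was taken. Members and gene lists were chosen with earlier results of these data known. Outside the T-box family, genes named were the 3 of highest FPKM in each pathway list (2 in marker lists), the 2 past the cut-off with the largest log2 ratio, at most 3 past it in the rarer direction, and neighbours past it. One gene picked in this way is left out and is not reported here. Pcdh8, Cdx2, Alb, Myl2, Bmp10, Xist, Uty, Kdm5d, Ddx3y and Eif2s3y fall outside it and were chosen once their values had been seen. Foxa2 is named only because it is in both the streak and the visceral endoderm list.

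Genes were matched to GENCODE vM21 (GRCm38) for coordinates, 23323 by symbol and 666 by RefSeq synonym, with 365 unmatched. Single-transcript genes from 1000 nucleotides in length show FPKM steps of 1 fragment. The fitted depth made 86.9% (Diff–CONT) and 87.4% (library labelled Diff–iKO) of low values whole within 0.2, where 40% would be by chance. Fragments per gene follow from the shortest RefSeq transcript and are approximate where transcripts differ, as for Tbx20 (1801 and 9091 nucleotides). Clopper-Pearson intervals cover counting error only. The steps were tested on simulated data. Promoter windows are those of RefSeq, and none was at hand for Tbx2, Tbx3 and Tbx5. Computations used Python 3.11.15 with matplotlib 3.10.9, scipy 1.17.1, pandas 2.3.3 and numpy 2.4.6. Other pseudocounts, FPKM and FC minimums, scalings and transcript lengths were tried.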

Additional observations from a re-analysis of the deposited data

How the results depend on the processing

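The count of 5 members lower past the cut-off fell to 2 (T and Eomes) with a pseudocount of 1, to 2 when FPKM of 2 was required in both libraries, which leaves out T, Eomes and Tbx4, and to 1 (T) with an FC minimum of 4. It was 7 with no FPKM minimum, where Tbx1 and Tbx5 joined, and 4 with a minimum of 5. It stayed at 5 under the 3 other scalings, which shifted all log2 ratios by -0.09, 0.01 and -0.01. The count of members higher past the cut-off was 0 under every alternative run. The median log2 ratio of the members that reached the minimum ran from -1.23 to -0.94. With a pseudocount of 1, which shrinks low values, the log2 ratio of T was -2.01, of Eomes -1.33 and of Tbx5 -0.50. One list changed direction: the epicardium and sinus venosus median was 0.019 with a mean FPKM of at least 5. At that minimum the upstream signal median was -0.33 (-1.68 at 1 or more), and with no minimum the presomitic median was -0.97 (-0.40). Summing rows of one symbol changed nothing, since no symbol was repeated. No paired analysis was possible because each condition had 1 library. Depth limits the values of Tbx5 and Tbx1, with 2 and 11 fragments in the library labelled Diff–iKO.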
